A study of Mus musculus with 10 samples.

Results

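SOX9 peaks that were found in the first hair follicle stem cell ChIP-seq library and nowhere else numbered 5014 of the 8181 peaks of that library's list, a share of 61.3% (95% exact interval 60.2 to 62.3%), and of the 16379 peaks in the 3 lists of the series. They were chosen by peak overlap, as the peaks of HFSC list 1 that share no base with any peak of HFSC list 2 or of the list from interfollicular epidermis. These 5014 peaks are called members below. Whether a peak recurs in another list chose them, so that recurrence is a description and is not tested here. A further 2047 peaks of list 1 (25%) overlapped list 2, of which 799 missed the epidermal list and 1248 were in all 3 lists. The remaining 1120 (13.7%) overlapped the epidermal list and not list 2. HFSC list 2 holds 2989 peaks, of which 2049 (68.6%) overlapped list 1 and 474 (15.9%) overlapped neither other list.

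Stem cells of the hair follicle (HFSCs) sit in the bulge, stay quiescent during telogen (the rest between hair growth phases) and later renew the hair. SOX9 is a transcription factor that bends DNA through an HMG box and binds the core ACAAAG or ACAATG, often at distal enhancers, where several binding sites can lie close together. It is expressed by bulge stem cells and is required to keep them, and in cartilage it drives matrix genes. A ChIP-seq peak marks where DNA fragments bound by the precipitated protein pile up, and a peak list keeps the regions that pass a caller's threshold.

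The study sorted HFSCs and cells of the interfollicular epidermis (IFE) from the back skin of mice. ChIP-seq used untreated female CD-1 mice of postnatal days 52 to 60 and a SOX9 antibody, with HFSCs sorted as integrin α6-high, CD34+ and ScaI- and IFE cells as α6-high, CD34- and ScaI-, which gave 2 HFSC lists and 1 IFE list. RNA-seq used HFSCs that were also YFP+ from mice of mixed C57BL6 background, 2 libraries labelled Sox9 conditional knockout (cKO) and 2 control libraries whose titles call them heterozygous and whose genotype field calls them wild type. Sox9 was to be deleted by CrePGR, a recombinase that RU486 activates, and all 4 RNA samples were given RU486. The labels as used here name the recombinase without its promoter. Replicate 1 of each genotype came from males of day 75 given RU486 on days 48 to 61, and replicate 2 from females of day 80 given it on days 53 to 66. The peak lists thus come from other mice, of another strain, than the RNA. The labels do not say that replicates came from separate mice, so the spread between libraries may be technical.

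The RNA libraries carried the markers of their sort. All 8 HFSC markers had a mean of at least 1 FPKM (fragments scaled by transcript length and library total), against 0 of 6 melanocyte and 0 of 4 endothelial markers, 2 of 4 sebocyte, 2 of 6 fibroblast and 2 of 4 immune markers. The sebocyte markers summed to 187 and 71.2 FPKM in libraries labelled cKO, against 150 and 76.2 FPKM in control libraries. All 5 markers of differentiated epidermis were present, with summed levels of 2512 and 4669 FPKM in libraries labelled cKO, against 2651 and 7293 FPKM in the control libraries. Sox9 itself had 71.3 and 80.5 FPKM in libraries labelled cKO, against 82.7 and 46.5 FPKM in control libraries. The groups overlap, Sox9 was not lower in both pairs, and limma with libraries paired by replicate number gave an adjusted p of 0.690. A whole-gene value may not cover the deleted part. Directions below therefore follow the labels. No member lay within 10 kb of Sox9, though 2 list 2 peaks and 1 IFE peak did. A list 1 peak shared with IFE and not with list 2 lay inside the Sox9 locus.

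Of the members, 103 (2.05%, 1.68 to 2.49%) lay across a gene start that could be placed on mm9, the mouse genome build of the files. The expression table gives loci without strand, so that a start was placed only for 6582 loci held by 1 gene row, with 1 RefSeq promoter and a length within 500 bp of RefSeq's. Members covered 108 starts and 8 ends of these loci. Promoters under members are shown for 4 genes described below and for the 3 most abundant genes in control whose promoter holds a SOX core, to let the letters under such peaks be read beside the counts. Each sequence is the 250 bases before the start, from RefSeq (GRCm38.p6), in lower case with every core in capitals. On the other strand ACAAAG reads CTTTGT. The first set has no capitals, since no core was found there.
Fos: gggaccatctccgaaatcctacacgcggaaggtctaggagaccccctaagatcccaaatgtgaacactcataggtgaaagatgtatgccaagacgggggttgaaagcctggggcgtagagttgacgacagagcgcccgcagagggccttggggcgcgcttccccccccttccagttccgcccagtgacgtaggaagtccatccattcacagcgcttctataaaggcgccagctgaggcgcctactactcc
Dusp6: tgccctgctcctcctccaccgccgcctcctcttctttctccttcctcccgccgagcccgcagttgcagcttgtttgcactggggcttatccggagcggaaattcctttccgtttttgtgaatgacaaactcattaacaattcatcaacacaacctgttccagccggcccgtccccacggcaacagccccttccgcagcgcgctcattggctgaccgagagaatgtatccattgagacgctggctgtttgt
Ier3: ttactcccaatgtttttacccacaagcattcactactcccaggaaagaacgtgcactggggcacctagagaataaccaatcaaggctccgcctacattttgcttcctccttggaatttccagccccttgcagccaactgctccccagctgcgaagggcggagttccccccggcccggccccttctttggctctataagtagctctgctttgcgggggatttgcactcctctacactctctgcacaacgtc
Lrig3: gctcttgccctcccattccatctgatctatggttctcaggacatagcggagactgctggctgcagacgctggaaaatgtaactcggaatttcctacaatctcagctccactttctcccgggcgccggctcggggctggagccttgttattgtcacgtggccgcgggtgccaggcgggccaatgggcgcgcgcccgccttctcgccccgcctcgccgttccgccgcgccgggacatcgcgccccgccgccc
These are GRCm38.p6 chr12:85473640-85473889, plus strand for Fos, chr10:99262981-99263230, plus strand for Dusp6, chr17:35821463-35821712, plus strand for Ier3 and chr10:125965969-125966218, plus strand for Lrig3. The second set holds at least 1 core.
Rpl27: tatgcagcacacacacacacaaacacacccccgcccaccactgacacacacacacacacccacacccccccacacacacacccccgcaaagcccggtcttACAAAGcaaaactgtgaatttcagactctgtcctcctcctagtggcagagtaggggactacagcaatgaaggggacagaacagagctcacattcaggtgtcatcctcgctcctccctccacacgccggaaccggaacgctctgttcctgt
Qars: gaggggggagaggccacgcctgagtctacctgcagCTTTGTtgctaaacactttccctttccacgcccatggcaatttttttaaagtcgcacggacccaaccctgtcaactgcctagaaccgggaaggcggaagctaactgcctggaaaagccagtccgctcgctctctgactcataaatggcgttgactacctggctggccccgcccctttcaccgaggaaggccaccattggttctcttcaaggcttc
Rnf187: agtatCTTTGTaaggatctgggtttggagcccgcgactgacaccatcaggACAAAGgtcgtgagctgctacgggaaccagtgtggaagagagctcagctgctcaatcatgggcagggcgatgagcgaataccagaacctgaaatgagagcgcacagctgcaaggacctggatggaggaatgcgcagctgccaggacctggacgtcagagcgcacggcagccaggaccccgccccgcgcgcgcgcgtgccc
These are GRCm38.p6 chr11:101441995-101442244, plus strand for Rpl27, chr9:108507755-108508004, plus strand for Qars and chr11:58938907-58939156, minus strand for Rnf187. The members over these starts lie at mm9 chr12:86814378-86815042 (Fos), chr10:98725472-98726138 (Dusp6), chr17:35958196-35958640 (Ier3), chr10:125402682-125403379 (Lrig3), chr11:101303357-101303926 (Rpl27), chr9:108409895-108410373 (Qars) and chr11:58752089-58752622 (Rnf187).

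The promoters under members seldom held a SOX core. Windows of 300 bases, 250 before and 50 after the start, were searched for ACAAAG and for ACAATG on both strands, words of which no pair can share a base. ACAAAG was found in 13 of the 108 windows under members (12%) and ACAATG in 4 (3.70%), against 18.8% and 12.9% of the 6582 matched promoters. Either core was in 16 of 108 (14.8%, 8.71 to 22.9%), against 7 of 41 (17.1%) under peaks of both HFSC lists that missed the IFE list and 17 of 148 (11.5%) under peaks in all 3 lists. Over all 32851 promoters of the RefSeq table, 28.6% held either core. Members lay over promoters rich in G and C, with a median of 59.2% GC, against 62.0% under peaks of both HFSC lists that missed the IFE list, 66.5% under peaks in all 3 lists and 54.0% over all matched promoters. The genes differ in level too, with a median control level of 18 FPKM under members and 0.241 FPKM over all matched promoters. The low share of cores and the high GC go together in these windows. The parts of base composition and expression level in the share were not tested. A match is a run of letters and not a bound site, and no match says only that these letters are not in the window.

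Members were narrower than peaks that recurred. Their median width was 584 bp (quartiles 478 and 690, range 163 to 3588), against 739 bp (612 and 888) for the 2047 peaks of both HFSC lists. Peaks of list 1 shared with the IFE list and not with list 2 had a median of 588 bp, close to that of the members. Among the narrowest 10% of list 1, of 163 to 416 bp, 72.6% were members and 9.16% were in both HFSC lists. Among the widest 10%, of 903 bp or more, 33.7% (30.5 to 37.1%) were members and 58.7% (55.2 to 62.1%) were in both. The highest share of members, 78.6%, was among the next narrowest 10%, of 416 to 477 bp. The lists hold no height or score, so that the strength of a peak beyond its width was not measured here.

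**Figure D1:**
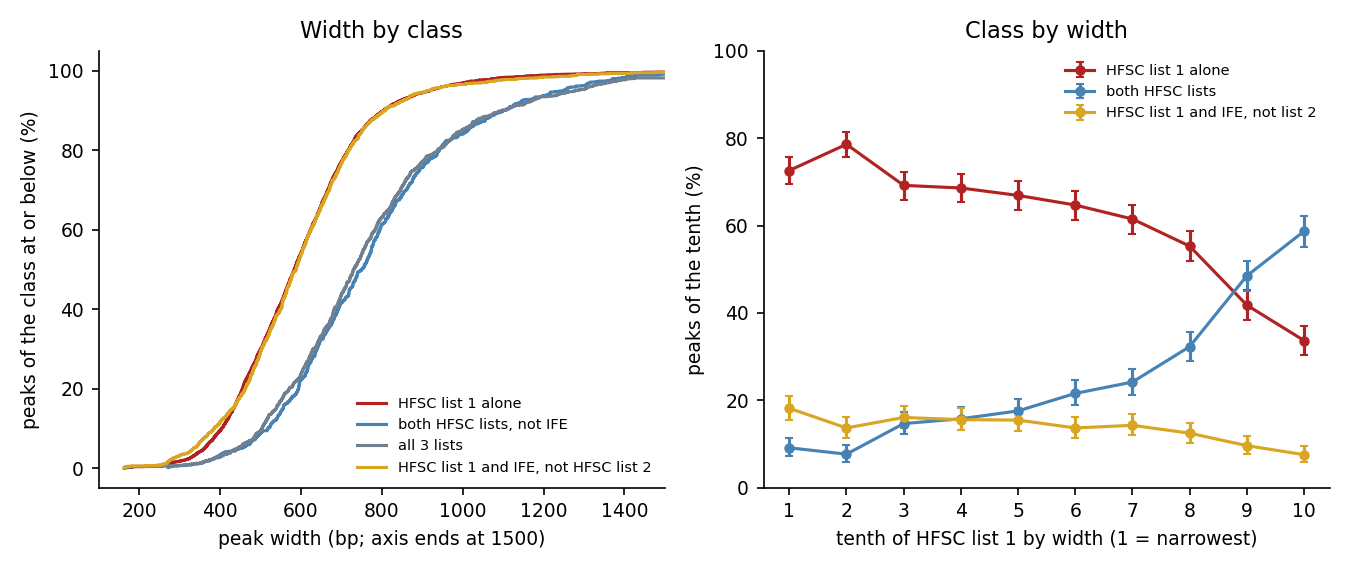
Left, cumulative share (%) of peaks by width (bp) for the 4 classes of HFSC list 1. Right, share (%) of each successive 10% of list 1 by width held by list 1 alone, both HFSC lists, or list 1 and IFE, with exact 95% intervals. The share of list 1 alone is 72.6% among the narrowest 10% and 33.7% among the widest, and that of both HFSC lists is 9.16% and 58.7%.

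The 6 widest members fall into few places. Of these, 4 lie at mm9 chr11:3080573-3084160 (3588 bp), chr11:3075002-3078505 (3504 bp), chr11:3097284-3100295 (3012 bp) and chr11:3049370-3051728 (2359 bp), inside 1 locus of the table that joins Sfi1 and Drg1 with other rows. The last of them has a list 2 peak 557 bp and an IFE peak 278 bp away, and the third has them 181 and 271 bp away. The others are at chr1:87487280-87490052 (2773 bp), inside Sp110, 303455 bp from the nearest list 2 peak and 303621 bp from the nearest IFE peak, and at chrX:166416488-166419070 (2583 bp), inside a locus that holds Mid1.

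Few members lay close to a list 2 peak. A gap describes place only, since the lists hold no score to say how nearly a site was listed in list 2. Only 11 had a list 2 peak within 100 bp and 56 had one farther off within 500 bp, while 2704 (53.9%) were more than 100 kb from any. The nearest were chr9:21350030-21350588, with a gap of 1 bp, chr14:31947180-31947937 (18 bp), chr16:14799493-14800032 (21 bp) and chr7:51560815-51561209 (31 bp), the last at Clec11a. Just outside the rule, the peaks of list 1 with the smallest overlap shared 13 bp (inside Itgb6), 16 bp (inside Tnks1bp1), 60 bp and 73 bp with list 2. Only 5 of the 2047 overlaps were of 100 bp or less, and the median overlap covered 81.2% of the list 1 peak.

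Members were spread away from gene edges more often than peaks of both HFSC lists. A locus edge, the start or end of a gene locus in the expression table, lay within 2 kb of 15.8% of members (14.8 to 16.8%), against 37.4% of peaks of both HFSC lists, a difference of -21.6 percentage points (-23.9 to -19.3). That difference is mostly a matter of the peaks that are also in the IFE list. Peaks of both HFSC lists that missed the IFE list were at an edge in 21.0% of cases (18.2 to 24.0%), which leaves a difference of -5.23 points (-8.35 to -2.35), while 47.8% of the peaks in all 3 lists and 33.8% of those shared with IFE and not with list 2 were at an edge. Elsewhere inside a locus lay 41.8% of members, against 34.2% of peaks of both HFSC lists and 38.5% of those that missed the IFE list. With edges counted in, the midpoint was inside a locus for 48.7% of members and 52.4% of peaks of both HFSC lists. More than 50 kb from any locus lay 14.1% of members, against 7.03% of peaks of both HFSC lists, 13.3% of those that missed the IFE list and 3.04% of peaks in all 3 lists.

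**Figure D2:**
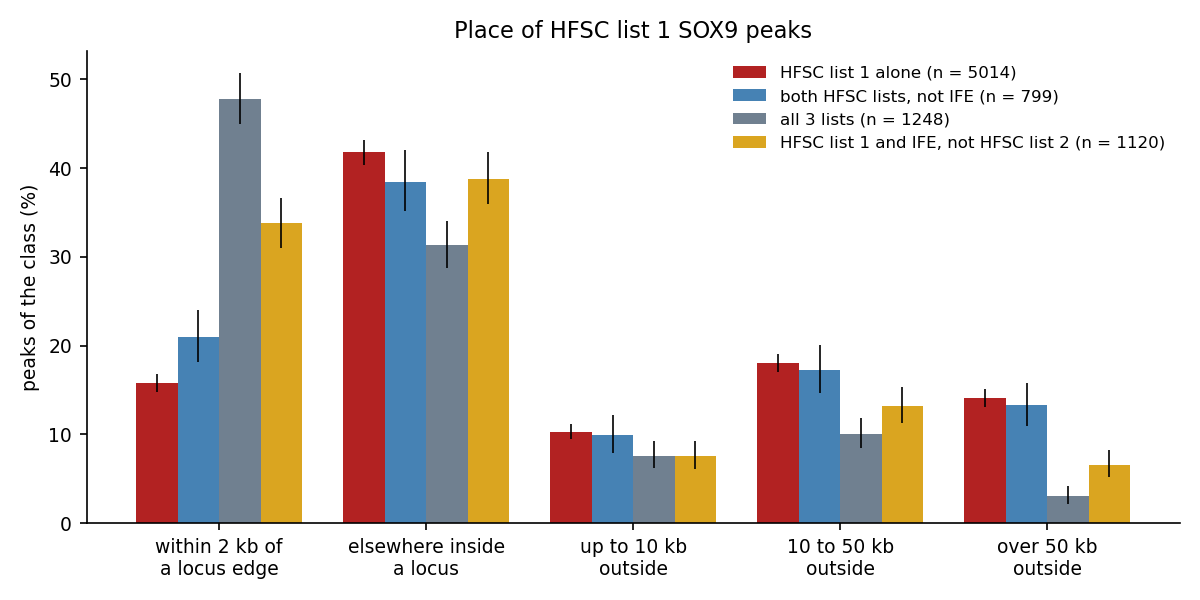
Share (%) of the peaks of each class of HFSC list 1 by place relative to the gene loci of the expression table, with exact 95% intervals. Locus edges take 15.8% of list 1 alone, 21.0% of peaks of both HFSC lists that miss IFE and 47.8% of peaks in all 3 lists. Beyond 50 kb the same classes have 14.1%, 13.3% and 3.04%.

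Turned round, 40.9% of the list 1 peaks at a locus edge were members, against 64.9% elsewhere inside loci, 66.6% up to 10 kb outside, 68.7% at 10 to 50 kb and 76.4% (73.6 to 79.1%) beyond 50 kb. Members at an edge were also the narrowest, with a median of 555 bp, and members beyond 50 kb had 602 bp. Over the autosomes and X, the share of list 1 that was alone ran from 52% on chromosome 7 to 69.5% on chromosome 14. On the X chromosome, 46 of 74 peaks (62.2%) were members. These intervals cover counting error only, because the peaks of each class come from 1 library.

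The share of members with another list 1 peak near differed little from that of recurring peaks. Another list 1 peak was within 12500 bp of 37.5% of members (36.2 to 38.9%), against 38.1% of peaks of both HFSC lists, a difference of -0.61 points (-3.12 to 1.87), and the median gap was 24.6 kb, against 24.3 kb. When peaks within 500 bp counted as shared, the difference was -3.02 points (-5.51 to -0.554). That setting itself moves members close to a list 2 peak into the recurring class, so it is no separate result about clustering. Set beside the peaks of both HFSC lists that missed the IFE list, of which 42.9% (39.5 to 46.4%) had such a neighbour, members had fewer. A peak of both HFSC lists was a less frequent neighbour of members than of other such peaks. A peak of both HFSC lists lay within 12500 bp of 11.9% of members (11.1 to 12.9%), against 16.1% of other peaks of both HFSC lists, a difference of -4.13 points (-5.99 to -2.34). The median gap to such a peak was 168 kb for members, against 130 kb. List 1 peaks shared with IFE and not with list 2 were close to members here, at 11.8% (9.96 to 13.8%) and 175 kb. Of that class, 28% (25.4 to 30.8%) had another list 1 peak within 12500 bp.

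**Figure D3:**
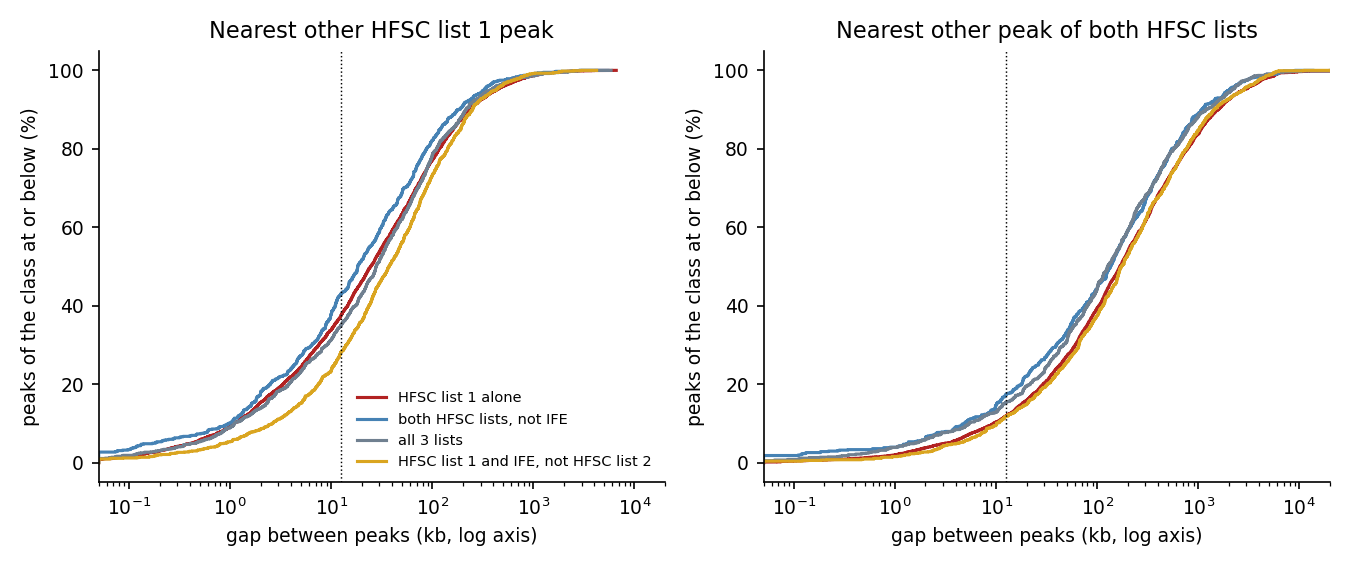
Cumulative share (%) of peaks by the gap (kb, log axis; gaps under 0.05 kb drawn at that value) to the nearest other HFSC list 1 peak (left) and to the nearest other peak of both HFSC lists (right), for the 4 classes. The dotted line marks 12500 bp, where list 1 alone stands at 37.5% on the left and 11.9% on the right.

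When list 1 peaks up to 12500 bp apart were joined, 6413 chains resulted. Of the members, 3134 (62.5%) stood alone and 757 (15.1%) were in chains of 3 or more, against 61.9% and 17.2% of peaks of both HFSC lists. Members made up between 59.6% and 64.5% of the peaks at each chain size. There were 472 chains of 2 or more peaks made of members only, which held 1033 members (20.6%), and 444 chains joined members with a peak of both HFSC lists, which held 669 members (13.3%).

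The chains with the most members lay in or beside Cxcl14, Col17a1, Pkp1 and Runx1 among others. The chain at chr13:56408544-56460171 has 11 peaks, 9 of them members, and lies 10.6 kb from Cxcl14, a secreted chemokine, which stood at 1518 and 1757 FPKM in control. The chain at chr6:91486712-91534662 has 10 peaks, 9 of them members, and no locus inside it. Its nearest locus is Lsm3, 14.1 kb away, and Slc6a6, the taurine transporter, lies 99.4 kb on the other side at 346 and 169 FPKM in control. Starting inside Col17a1, a collagen of the hemidesmosome that anchors basal cells, and running beyond it over 6330577E15Rik, chr19:47760949-47806258 holds 13 peaks with 6 members. Starting inside Pkp1, a plakophilin of desmosomes, and running beyond it, chr1:137780142-137830555 holds 8 peaks with 6 members. A chain of 6 members without any other peak is at chr9:72024950-72045107, 2.16 kb from Gm7866, a predicted gene. The chain at chr7:38968771-38985937 has 7 peaks, 5 of them members, over 1600014C10Rik. Further chains with 5 members each lie in Runx1, a transcription factor of hair follicle stem cells, and at Gm5860, 223 kb from the Nfib locus.

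Genes near members were expressed more often than genes near no peak. Of the 37298 gene rows, 5263 lay within 10 kb of a member, on 2903 of 28050 loci. Of the 14455 genes with a mean of at least 1 FPKM, which are the tested genes, 2972 (20.6%) lay near a member. Of the tested genes, 2116 (14.6%) lay near a member and no peak of both HFSC lists, called near members only in what follows. Genes near members only can still lie near other peaks, such as those of the IFE list. Likewise, near peaks of both HFSC lists only means near no member, and does not exclude other peaks. A mean of at least 1 FPKM was reached by 55.5% of gene rows near members only, 59.1% of those near a member and a peak of both HFSC lists, 67.0% of those near peaks of both HFSC lists only and 28.1% of those near no peak of any list. The median control level of the tested genes was 13.9 FPKM near members only, 20.4 FPKM near both kinds, 16.7 FPKM near peaks of both HFSC lists only and 9.97 FPKM near no peak. Loci near members were longer, with medians of 56.6, 150, 28.9 and 8.22 kb over the rows of these classes. Among loci of 10 to 50 kb held by 1 gene row, the share at 1 FPKM or more was 79.5% near members only (76.0 to 82.7%), 87.1% near both kinds, 84.4% near peaks of both HFSC lists only and 42.9% near no peak. Some loci of the table join many rows, the longest 159 rows over 4435 kb, so that a gene row can count as near a peak that lies at another gene. The difference between genes near members and genes near no peak was thus also seen within loci of 1 gene row.

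Some long loci held many members, of which a few are described here. The locus of 1700112E06Rik, 1075 kb long, has 8 members and no other peak and stood at 0.335 FPKM in 1 control library and is listed at 0 in the other. Glod4 has 9 members, 5 of them inside its joined locus, with 1 peak of both HFSC lists. Pdzd2 has 7 members and no peak of both HFSC lists within 10 kb, though 4 IFE peaks, and stood at 27.1 and 12 FPKM in control. App, the amyloid precursor protein, has 6 members and 1 peak of both HFSC lists, at 581 and 392 FPKM in control. The largest counts, 15 in the locus that joins Cox4i1 with 159 rows and 14 in the one that joins Fgfr2 and Gm16477 with 42 rows, cannot be given to 1 gene.

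The most abundant genes with a member inside and no peak of both HFSC lists within 10 kb included keratinocyte and secreted products. Krt10, a keratin of differentiating epidermis, stood at 1729 and 3973 FPKM in control with a member at chr11:99247666-99248120. Cxcl14 has a member at chr13:56394296-56394835, with 1 list 2 peak and 1 IFE peak within 10 kb. Aqp3, the water and glycerol channel of basal keratinocytes, stood at 1098 and 1052 FPKM with a member at chr4:41041256-41041930. Postn, the matricellular protein periostin, stood at 1068 and 950 FPKM with a member at chr3:54166344-54166992. Lgals3, which encodes galectin-3, has members at chr14:47998115-47998631 and chr14:48004129-48004838 and stood at 927 and 1533 FPKM. The others were Gnb2l1, Eef1b2, Gm9000, Txnip and Rps15a, at control means between 698 and 2171 FPKM. Gm9000 is on a joined locus of 5 rows over 1504 kb, so that its 2 members cannot be given to it alone. Gnb2l1, Eef1b2 and Rps15a belong to the translation machinery and have related copies elsewhere in the genome, so that their levels are uncertain.

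Gene lists were read against the 20.6% of tested genes near a member and the 15.5% near a peak of both HFSC lists. Transcription factors of bulge and epidermis had members near 21 of 34 (61.8%, 43.6 to 77.8%), against peaks of both HFSC lists near 14 of 34 (41.2%). Nfib, which with its relatives maintains bulge stem cells, has 6 members. Trp63, which encodes the p63 of basal epithelia, has 5 members, 4 of them inside the locus, and Vdr, the vitamin D receptor, has 5 inside, between chr15:97691296 and 97731357. Runx1 has 5 and Nfatc1, a factor of stem cell quiescence, has 4. Each of these genes also has at least 1 peak of both HFSC lists. The loci of this list are long, with a median of 59.0 kb, against 25.8 kb over all tested genes. Of the HFSC markers, 6 of 8 had a member near (75%, 34.9 to 96.8%) and 4 a peak of both HFSC lists. Their loci are long too, with a median of 103 kb, and the part of length in the shares was not tested. Among the markers with a member near, Krt15, a keratin of the bulge at 9613 and 9375 FPKM in control, has 1 at chr11:99999188-99999510. Tcf7l1, a repressor of WNT targets in the bulge, has 3 members inside. Within 10 kb Tcf7l1 has no peak of both HFSC lists but 1 list 2 peak and 1 IFE peak. Of the SOX family, 0 of 7 tested genes had a member near, which allows a share of up to 41.0% by the exact interval.

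Signalling genes were counted by pathway, with no test between lists or peak classes. Median locus lengths were 49.5 kb for the TGF-beta, activin and BMP list and 30 kb for receptor tyrosine kinases. They were 50.5 kb for WNT and 49.1 kb for Notch, against 25.8 kb over all tested genes. The part of length in the shares was not tested. In TGF-beta, activin and BMP signalling, members lay near 15 of 42 genes (35.7%, 21.6 to 52%) and peaks of both HFSC lists near 4 (9.52%, 2.66 to 22.6%). The 5 genes of the list with the most members have no peak of both HFSC lists within 10 kb. These are the ligand Bmp7 with 3 members, the receptors Acvr1b and Tgfbr3 with 2 each, the signal transducer Smad5 with 2 and the inhibitor Smad7 with 3. Peaks of the IFE list do lie within 10 kb, 2 at Bmp7 and 1 each at Acvr1b, Tgfbr3 and Smad5, with none at Smad7. Bmp7 stood at 10.6 and 7.57 FPKM in control, with members at chr2:172686879-172687651, chr2:172688640-172689160 and chr2:172711535-172712227. In receptor tyrosine kinase signalling, members lay near 15 of 37 (40.5%) and peaks of both HFSC lists near 8 (21.6%). Both counts include Fgfr2 through the locus that joins 42 rows, where a peak cannot be given to 1 gene. Egfr, the epidermal growth factor receptor, has no peak of both HFSC lists but 1 IFE peak within 10 kb. It has 5 members between chr11:16653613 and 16757995, all inside its locus. Igf1r, the IGF1 receptor, has 3 members, with 1 IFE peak also within 10 kb. Lrig3, an LRIG-family membrane protein, has 3 beside 2 peaks of both lists. In WNT signalling, members lay near 17 of 40 (42.5%) and peaks of both HFSC lists near 19 (47.5%). Lgr6, an R-spondin receptor that marks stem cells of the follicle, has 4 members inside its locus and no peak of any other list within 10 kb, at 23.9 and 13.1 FPKM in control. Its relatives Lgr5, with 4 members, and Lgr4, with 3, have 1 peak of both HFSC lists each. In Notch signalling, members lay near 4 of 15, which were Hes1, Maml2, Notch2 and Numbl with 1 each. IFE peaks within 10 kb numbered 3 at Hes1 and 2 at Numbl, with none at Maml2 or Notch2.

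Structural genes were counted in the same way. Median locus lengths were 47.8 kb for adhesion, 65.6 kb for matrix and 22.7 kb for the cytoskeleton, and the part of length was again not tested. In adhesion and hemidesmosomes, members lay near 17 of 35 (48.6%, 31.4 to 66%) and peaks of both HFSC lists near 22 (62.9%, 44.9 to 78.5%), and 3 of the 17 had members without a peak of both lists. Pkp1 has 6, Col17a1 5, Lama3, a laminin chain of the basement membrane, 4, and the desmosomal Dsp 3. In the matrix list, members lay near 16 of 30 (53.3%), against 10 (33.3%). Tnc, which encodes tenascin C, has 4 members and no peak of any other list within 10 kb. In the cytoskeleton list, members lay near 16 of 35 (45.7%), against 11 (31.4%), and Myh9 has 4 and Actn1 3. AP-1 and early response genes have short loci, with a median of 4.98 kb, and members lay near 10 of 23 (43.5%, 23.2 to 65.5%), against peaks of both HFSC lists near 11 (47.8%). Fos, which stood at 2950 and 1438 FPKM in control, has its 2 members at the start and 8.93 kb beyond the locus, at chr12:86826932-86827373, and Ier3 has 2. Jun has 2 and Atf3 and Zfp36 have 1 each. IFE peaks within 10 kb numbered 3 at Fos, 2 at Jun, 4 at Atf3 and 1 at Zfp36, with none at Ier3.

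Lists of genes not tied to hair follicle stem cells gave lower shares than most lists above, with wide intervals. Members lay near 12 of 50 ribosomal protein genes (24.0%, 13.1 to 38.2%), 3 of 21 housekeeping genes (14.3%, 3.05 to 36.3%) and 1 of 14 genes of differentiated epidermis and sebaceous gland (7.14%, 0.181 to 33.9%), which was Krt10. Peaks of both HFSC lists lay near 9, 5 and 0 genes of these lists. The ribosomal counts include Rpl13 through the locus that joins 159 rows, where a peak cannot be given to 1 gene. Their loci are short, with medians of 4.13, 10.7 and 5.14 kb, and the part of length in the shares was not tested. Of the cartilage targets of SOX9, 3 of 20 were tested and 1, Wwp2, had a member near. Among genes of other skin cell types, 4 of 20 were tested and 1, Col1a1, had members near. Pecam1, an endothelial marker that was not tested, has 3 members inside its locus although it stood between 0.0668 and 0.102 FPKM in all 4 libraries.

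**Figure D4:**
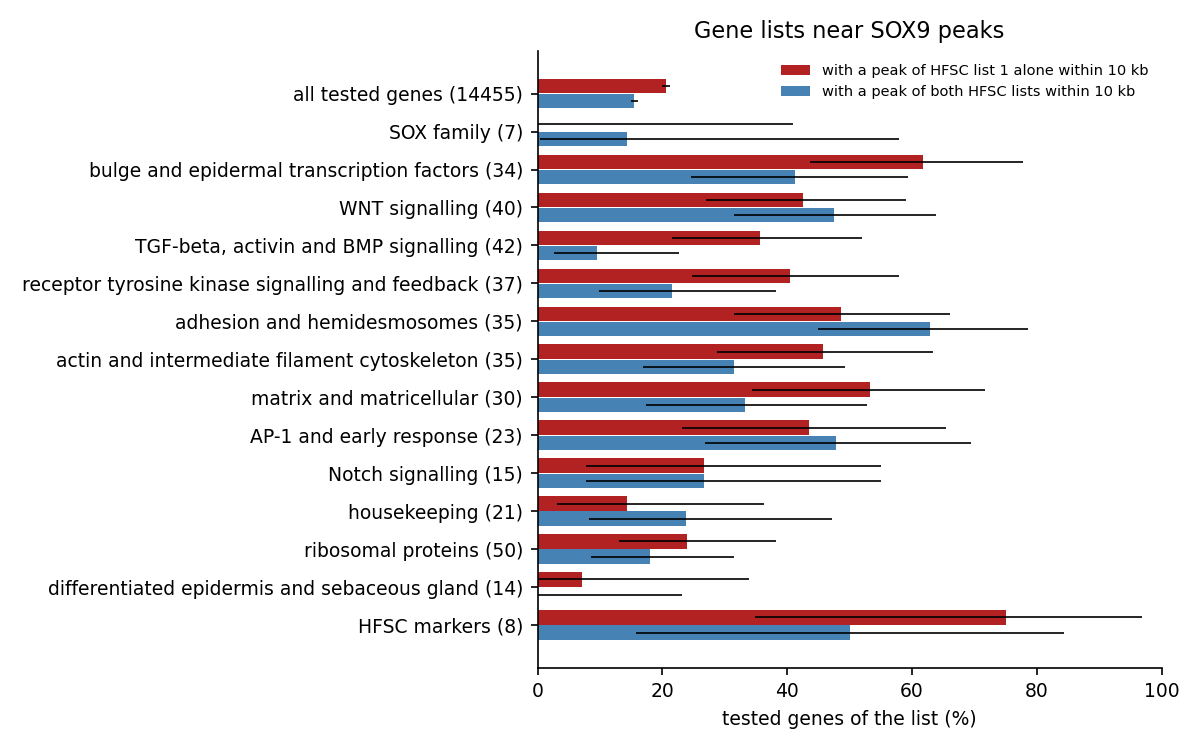
Share (%) of the tested genes of each list with a peak of HFSC list 1 alone (upper bar) or a peak of both HFSC lists (lower bar) within 10 kb, with exact 95% intervals and the number tested in brackets. The bars for all tested genes are at 20.6% and 15.5%, those of bulge and epidermal transcription factors at 61.8% and 41.2%, and those of adhesion at 48.6% and 62.9%. Lists with fewer than 7 tested genes are left out.

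The last comparison asked whether genes near members differed between the libraries labelled cKO and control. With genotype alone, limma called 0 of 14455 genes (0%), and 93 (0.643%) had an unadjusted p under 0.05, of which 29 were among the 2972 genes near members (0.976%). Blocking on replicate number, which pairs libraries of the same sex, age and RU486 days, it called 41 genes (0.284%). Libraries labelled cKO were higher for 15 (0.104%) and lower for 26 (0.18%). Near members, 17 of 2972 were called (0.572%, 0.334 to 0.914%), 3 higher and 14 lower. The differences between the following classes were not tested. Of the 2116 genes near members and no peak of both HFSC lists, 6 were called, a share of 0.284% (0.104 to 0.616%) that equals that over all genes. Of the 856 genes near a member and a peak of both HFSC lists, 11 were called (1.29%, 0.643 to 2.29%). Of the 1383 near peaks of both HFSC lists and no member, 5 were called (0.362%), and of the 7059 near no peak of any list, 18 (0.255%). With all libraries and the filter of 1 FPKM, these calls were made only with the block, and they rest on its settings. After quantile normalization the blocked fit called 3 genes, 1 of them near a member, and with no mean trend or no filter on low values it called 0. The median locus length of these 4 classes was 42.5, 109, 27.5 and 16.7 kb, and the part of length in the shares was not tested. The median log2 change near members was -0.035, against -0.006 over all tested genes. It was -0.068 in the replicate 1 pair and 0.004 in the replicate 2 pair. It was 0.025 without control replicate 1, -0.119 without cKO replicate 1, -0.008 without cKO replicate 2 and -0.141 without control replicate 2, so that its direction rests on single libraries. All changes are on the log2(FPKM + 1) scale, as labelled cKO minus control.

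The 6 called genes near members and no peak of both HFSC lists differed in size and direction. Grik1, a kainate-type glutamate receptor subunit, stood at 0.667 and 0.692 FPKM in libraries labelled cKO, against 7.87 and 11.3 FPKM in the control libraries. The groups do not overlap, and the log2 change was -2.64 ± 0.23 (moderated SE with the block, n = 2 pairs, limma adjusted p = 0.0164). Its member is inside the locus, at chr16:88244859-88245400. St6galnac2, a sialyltransferase, stood at 3.15 and 2.08 FPKM, against 20.1 and 11.6 FPKM in control, a log2 change of -2.19 ± 0.18 (limma adjusted p = 0.0164). Its member is at chr11:116532883-116533269 in a locus of 6 rows, with 1 IFE peak also within 10 kb. Wwp2, a ubiquitin ligase whose gene is bound by SOX9 in cartilage, stood at 36.2 and 34.2 FPKM, against 135 and 83.0 FPKM in control, a log2 change of -1.57 ± 0.17 (limma adjusted p = 0.0273). Wwp2 has 3 members inside its locus, at chr8:110006983-110007891, chr8:110025208-110025844 and chr8:110043576-110044273, and no peak of list 2 or IFE within 10 kb. The groups overlap neither in St6galnac2 nor in Wwp2.

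Paqr6, a member of the progestin and adipoQ receptor family, stood at 5.89 and 18.0 FPKM in libraries labelled cKO, against 16.1 and 53.1 FPKM in control. The groups overlap across replicates but both pairs were lower, with log2 changes of -1.31 and -1.51 (limma adjusted p = 0.0273), and its member is at chr3:88167666-88168153, 0.596 kb outside the locus. With genotype alone, the mean change of -1.41 became -0.68 without cKO replicate 1, -0.58 without control replicate 2, -2.14 without cKO replicate 2 and -2.24 without control replicate 1. Dusp6, a phosphatase that switches off ERK, was the one gene of the 6 that was higher. It stood at 74.2 and 39.7 FPKM, against 30.2 and 16.6 FPKM in control, a log2 change of 1.24 ± 0.13 (limma adjusted p = 0.0273), and its member covers its start (the promoter printed above). With genotype alone, the change was 0.79 without cKO replicate 1 and 0.82 without control replicate 2. The groups do not overlap. Of the 37 tested genes of receptor tyrosine kinase signalling, 3 were called higher, and Dusp6 was the one near a member. The last of the 6 was snoU13, a small nucleolar RNA, at 3.42 and 0 FPKM against 12.1 and 2.33 FPKM in control, a kind of RNA that mRNA libraries capture poorly. The locus of snoU13 also holds a list 1 peak shared with IFE.

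Genes called near a member and a peak of both HFSC lists were Wfdc3, S100a4, Ccl27a, Sulf2, Thsd1, Lhx2, Gm16314, Phyhip, Slit3, Timp2 and 2310057J16Rik. Lhx2, a LIM homeobox factor that maintains bulge stem cells, has 3 members, at chr2:38203265-38203709, chr2:38205811-38206939 and chr2:38215177-38215957, beside 3 peaks of both HFSC lists. It stood at 114 and 87.1 FPKM in libraries labelled cKO, against 359 and 195 FPKM in the control libraries. Sulf2, an extracellular heparan sulphate sulphatase, has 2 members and stood at 7.09 and 8.28 FPKM, against 24.4 and 23.1 FPKM in control. Slit3, a secreted guidance ligand, has 3 members and was higher, at 33.6 and 13.1 FPKM, against 14.0 and 4.02 FPKM in control. S100a4, a calcium-binding protein, has 2 members, 1 of them inside its locus, and stood at 310 and 1051 FPKM, against 1168 and 2862 FPKM in control. The groups do not overlap in Lhx2, Sulf2 or S100a4, and in Slit3 they do, although both pairs were higher. Ccl27a has near-identical copies, so that its level is uncertain.

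**Figure D5:**
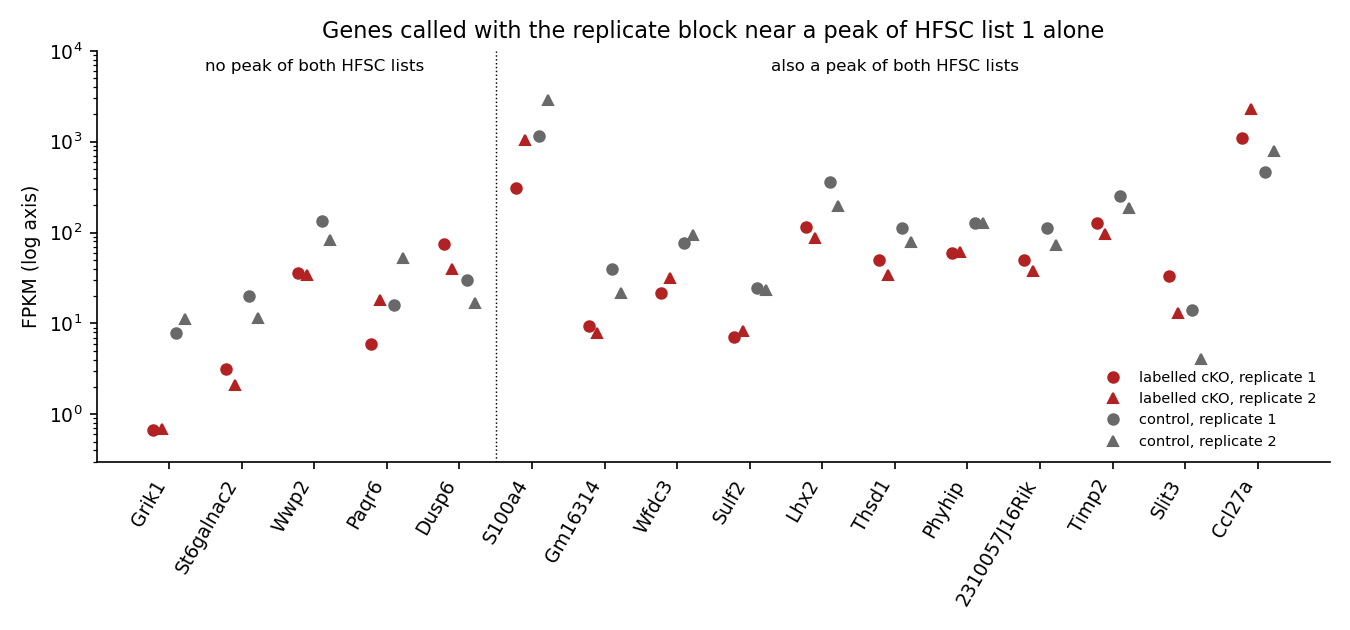
FPKM (log axis) in each RNA library of 16 genes called with the replicate block within 10 kb of a member, red for libraries labelled cKO and grey for control, circles for replicate 1 and triangles for replicate 2. Genes left of the dotted line have no peak of both HFSC lists within 10 kb, those right of it have at least 1; snoU13, listed at 0 in 1 library, is not drawn. Grik1 is at 0.667 and 0.692 FPKM in libraries labelled cKO, below 7.87 and 11.3 FPKM in control.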

How the data were processed

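Each ChIP library has 1 deposited peak list, which gives a chromosome, a start and an end (mm9) and no other value. For the peak caller, its threshold, its use of the input libraries and the read depth, nothing is given in the sources used here. Expression was deposited by the authors as FPKM, with 37298 gene rows and 1 column per RNA library. Bowtie, TopHat, TopHat2 and Cufflinks 1.0.3 are listed in the submitters' processing notes, with no roles. FPKM depends on the total of each library, and its depth is unknown, so no count model was used.

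Peaks of different lists counted as shared with an overlap of 1 bp or more. Peaks were placed by their midpoint against the table's loci, which have no strand and which 5206 times are shared by more than 1 row. Shares have exact (Clopper-Pearson) 95% intervals, and differences between shares have Newcombe 95% intervals built from Wilson limits. Both are for counting error only, since the peaks of each class come from 1 library and are sorted by overlap with the other lists. Log2(FPKM + 1) was tested over genes with a mean of at least 1 FPKM with limma 3.58.1 in R 4.3.3 (mean trend, two-sided, Benjamini-Hochberg, threshold 0.05), with genotype alone and with the replicate number as a block, and the fit was tested on simulated data. Replicate numbers pair libraries of the same sex, age and RU486 days per the labels, and deviations of same-numbered libraries from their group means correlated at 0.812 across 14455 genes. The blocked SE shares spread across genes.

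Promoter sequences are RefSeq's (GRCm38.p6); peak sequences were not read, since no mm9 genome was used here. Members, gene lists and alternatives were chosen with earlier results of these data known. Named genes were the 10 loci with the most members, the 10 most abundant genes with a member inside and no peak of both HFSC lists, called genes near a member, and up to 5 members of each of 16 lists by number of members and control FPKM. Fewer are named from some lists. Some results that the rule picked are not reported here. Of the 9 promoters that this rule and the search for cores gave, 7 are printed; the second set was chosen after its values were seen.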

Additional observations from a re-analysis of the deposited data

Results flagged for a closer look

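Sox9, the targeted gene, differed in direction between the pairs: the log2 change of the libraries labelled cKO minus control was -0.21 in the male pair (replicate 1) and 0.78 in the female pair (replicate 2). The difference between the pairs was not tested. The pairs differ in age and RU486 days as well as sex, which cannot be told apart. No member lay within 10 kb of Sox9, though peaks of list 2 and of the IFE list did.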

How the results depend on the processing

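Of 452 alternative values, 352 stayed near the main value or, for the change of a gene, kept direction and side of the threshold. Another 51 passed the threshold only in an alternative, 47 moved and 2 were labelled reversed. A value near 0 could change sign and still count as near or moved. The share with another list 1 peak near (-0.61) was 0.192 when shared peaks had to overlap by at least 50%. The share at a locus edge (members minus both HFSC lists, -21.6 points) was -18.3 with IFE overlap allowed, -19.1 among the wider list 1 peaks (above the median width) and -5.23 against peaks that missed IFE, an alternative chosen after seeing the data. The share with the midpoint inside any locus, edges counted in (-3.67), was -6.25 with expressed loci and 1.81 (-1.92 to 5.52) against peaks that missed IFE, a reversal whose interval includes 0. The share within 10 kb of a locus (-12.2) was -9.93 with IFE overlap allowed, -15.9 with expressed loci, -9.14 and -7.07 with windows of 25 and 50 kb, and -1.57 against peaks that missed IFE. Among the wider peaks, the share with another list 1 peak near (-0.61) was 2.28, the median width difference (-155 bp) was -94.5 bp and members numbered 2115. The share near a peak of both HFSC lists (-4.13) was -9.8 when peaks within 500 bp counted as shared. That setting itself moves members close to a list 2 peak into the recurring class. Tested genes near a member (2972) numbered 5171 within 50 kb and 1285 on loci of 1 gene row, where 6 were called with the block. For these changes the cause was not tested, beyond the smaller or larger sets the alternatives hold.

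With genotype alone 0 genes were called, 0 of them near members. The counts, with those near members in brackets, were 41 (17) with the replicate block and 7 (1) with no filter. With the replicate block they were 33 (15) at pseudocount 0.1, 78 (27) at pseudocount 5 and 3 (1) after quantile normalization, and 0 with no filter or no trend. Leaving out 1 library in the fit with genotype alone gave 2 to 41 calls, 0 to 7 of them near members: 41 (7) without cKO replicate 1, 7 (1) without cKO replicate 2, 4 (0) without control replicate 1 and 2 (0) without control replicate 2. A lone library was assumed to vary like the others. Sox9 ran from -0.13, a reversal, to 0.69 over these. The unknown depth and the 1 list per library limit all shares to counting error.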
